A study of Mus musculus with 11 samples.

Results

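The genes described here are 10 components of the NF-kB system, namely the subunits Nfkb1, Nfkb2, Rel and Relb and the feedback inhibitors Nfkbia, Nfkbie, Nfkbiz, Bcl3, Tnfaip3 and Tnip1. They were taken by gene symbol from a table of 55486 genes. All 10 had counts and all 10 were among the 11389 genes that passed the filter on low counts. RNA was measured with Smart-seq2, which reads whole transcripts from little starting material, in blood eosinophils of FVB/N mice with metastases derived from mammary tumours. One group of 7 mice (labelled CIS+IT, here treated) received cisplatin, a DNA-crosslinking drug, with antibodies to PD1 and CTLA4, receptors that restrain T cells. The other group of 4 mice (labelled Control Ab) received control antibody alone. All blood was taken on day 21 after treatment began, and eosinophils were sorted as CD45+ CD11b+ F4/80+ live cells without CD3, with little Ly6g and a high side scatter. Each library came from 1 mouse, and the age of the mice is not stated in the labels. CD11b and F4/80 are also carried by monocytes and macrophages, which limits how far the gate alone defines the cells.

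NF-kB transcription factors are dimers of related subunits that are held inactive in the cytoplasm by inhibitor proteins of the IkB family. Signals from receptors of the TNF, IL-1 and Toll-like families activate a kinase complex that marks IkB for destruction, and the freed dimers enter the nucleus and bind kB sites in promoters and enhancers. Many genes they switch on encode their own subunits, IkB proteins and enzymes that edit ubiquitin chains, so that the response limits itself. In eosinophils this system is known for its part in survival and in the production of cytokines.

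The promoters of these genes are shown because kB sites there are what makes many of them feedback genes. RefSeq start sites on the build GRCm38.p6 were on hand for 7 of the 10 genes (Nfkb2, Rel, Nfkbia, Nfkbie, Bcl3, Tnfaip3 and Tnip1), with 10 starts among them. Up to 150 bases before the start are printed for 4 genes, 5′ to 3′ on the strand of the gene, with matches to the kB consensus in capitals. The Nfkbia stretch is chr12:55492648-55492797 on the minus strand, the Nfkbie stretch is chr17:45555550-45555699 on the plus strand, the Rel stretch is chr11:23770971-23771119 on the minus strand and the Tnip1 stretch is chr11:54962941-54963090 on the minus strand.
Nfkbia: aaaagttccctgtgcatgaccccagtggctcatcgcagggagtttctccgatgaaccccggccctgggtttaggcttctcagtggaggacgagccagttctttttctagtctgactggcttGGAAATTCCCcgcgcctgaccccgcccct
Nfkbie: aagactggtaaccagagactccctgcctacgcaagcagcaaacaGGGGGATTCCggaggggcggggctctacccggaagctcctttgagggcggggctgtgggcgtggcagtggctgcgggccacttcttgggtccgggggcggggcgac
Rel: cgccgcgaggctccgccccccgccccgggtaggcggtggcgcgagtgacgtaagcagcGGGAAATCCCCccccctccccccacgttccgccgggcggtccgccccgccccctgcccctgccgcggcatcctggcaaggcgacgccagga
Tnip1: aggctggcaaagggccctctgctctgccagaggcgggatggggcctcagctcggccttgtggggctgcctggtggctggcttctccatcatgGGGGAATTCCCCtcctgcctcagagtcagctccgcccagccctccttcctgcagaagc

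The kB consensus, a motif of 10 letters searched on both strands, lay in the 250 bases before at least 1 start of 6 of these 7 genes. The exception was Bcl3, for which these letters were not found in that window. The same search found a match before 1281 of 32851 starts (3.9%) and for 1204 of 27025 genes (4.46%) in the RefSeq table. Counted from the base before the start as -1, the match ran from -29 to -20 in Nfkbia, from -106 to -97 in Nfkbie and from -92 to -82 in Rel. In Tnip1 overlapping matches filled -58 to -47, a run that reads the same on both strands. In Nfkb2 and Tnfaip3 the windows overlap annotated exons. Only some of their sites are therefore shown, with a few bases around them, to compare the matched letters with those above. The Nfkb2 site nearest to a start lies at chr19:46304716-46304736 on the plus strand, with the match at -11 to -2. The other one shown lies at chr19:46305695-46305724 on the same strand, with the match at -225 to -216 before another start. Nfkb2 matches at -39 to -29 and, before a further start, at -236 to -227 are not printed. The Tnfaip3 site nearest to a start lies at chr10:19015411-19015432 on the minus strand, and a match at -125 to -116 is not printed.
Nfkb2: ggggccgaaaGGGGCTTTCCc
Nfkb2: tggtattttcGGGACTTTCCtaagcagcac
Tnfaip3: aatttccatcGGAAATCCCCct

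A match is a description of the letters and not evidence of binding. Among tested genes outside these 10 with a RefSeq start, the 459 with a match had a fitted fold change above 0 in 57.3%, with a median log2 fold change (treated minus control) of 0.104. The 8176 without a match were above 0 in 51.2%, with a median of 0.019. Genes with a match were also higher at an unadjusted p under 0.05 in 5.88% of cases, against 3.56% of those without.

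Library totals ran from 3733156 to 8016658 counts. Of 8 eosinophil markers, 7 had counts in all 11 libraries. Levels are given in CPM, counts scaled to a common library total and further with TMM, a correction for differences in library composition. Siglecf stood at 243 to 980 CPM, Ccr3 at 1030 to 4770 CPM and Il5ra at 22.8 to 390 CPM. Prg2 ran from 27.7 CPM in treated 3 to 2290 CPM in control 3. Epx was at 0 in treated 3 and at 1.42 CPM in control 2. The 8 markers summed to 2246 (treated 3) to 8490 CPM in treated and 5306 to 7294 CPM in control libraries. The gate genes Adgre1, which encodes F4/80, and Itgam, which encodes CD11b, were also present in all libraries, while of the CD3 chains Cd3e was at 2.69 CPM or less, Cd3g at 3.04 to 14.9 CPM and Cd3d at 7.23 to 35.7 CPM. Transcripts of Ly6g were counted in 3 of the 11 libraries. Control 3 and control 4 stood apart, with 28.2% and 20.1% of counts on haemoglobin genes against 4.42% or less elsewhere, and with 10775 and 11263 detected genes against 12639 or more. Header identifiers start with 19 in every treated and with 20 in every control library, so anything these digits mark cannot be told apart from the treatment. Their letters are VIS in treated 2 to treated 7 and KDV in treated 1 and the 4 controls.

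The comparison asks how the combination treatment altered these genes in blood eosinophils. Of the 10 genes, 8 had a higher fitted level in treated libraries, Relb and Nfkbia being the exceptions, where 51.8% of all tested genes were above 0. Their median log2 fold change was 0.587, beside 0.028 for all tested genes. None passed the test across all genes (edgeR's quasi-likelihood test, p-values adjusted by Benjamini-Hochberg), which called 0% of the 11389 genes higher. At an unadjusted p under 0.05, Nfkb1, Nfkbie and Tnip1 were higher and none was lower, where 3.7% of all tested genes were higher. In none of the 10 did all treated libraries lie above all controls, which 0.509% of tested genes did. DESeq2 called none of the 10 either, while it called 57 of 12933 genes higher (0.441%). The smallest adjusted p by DESeq2 among them was 0.189, for Tnip1. In bulk libraries, fewer cells of a type and less RNA per cell cannot be told apart.

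**Figure D1:**
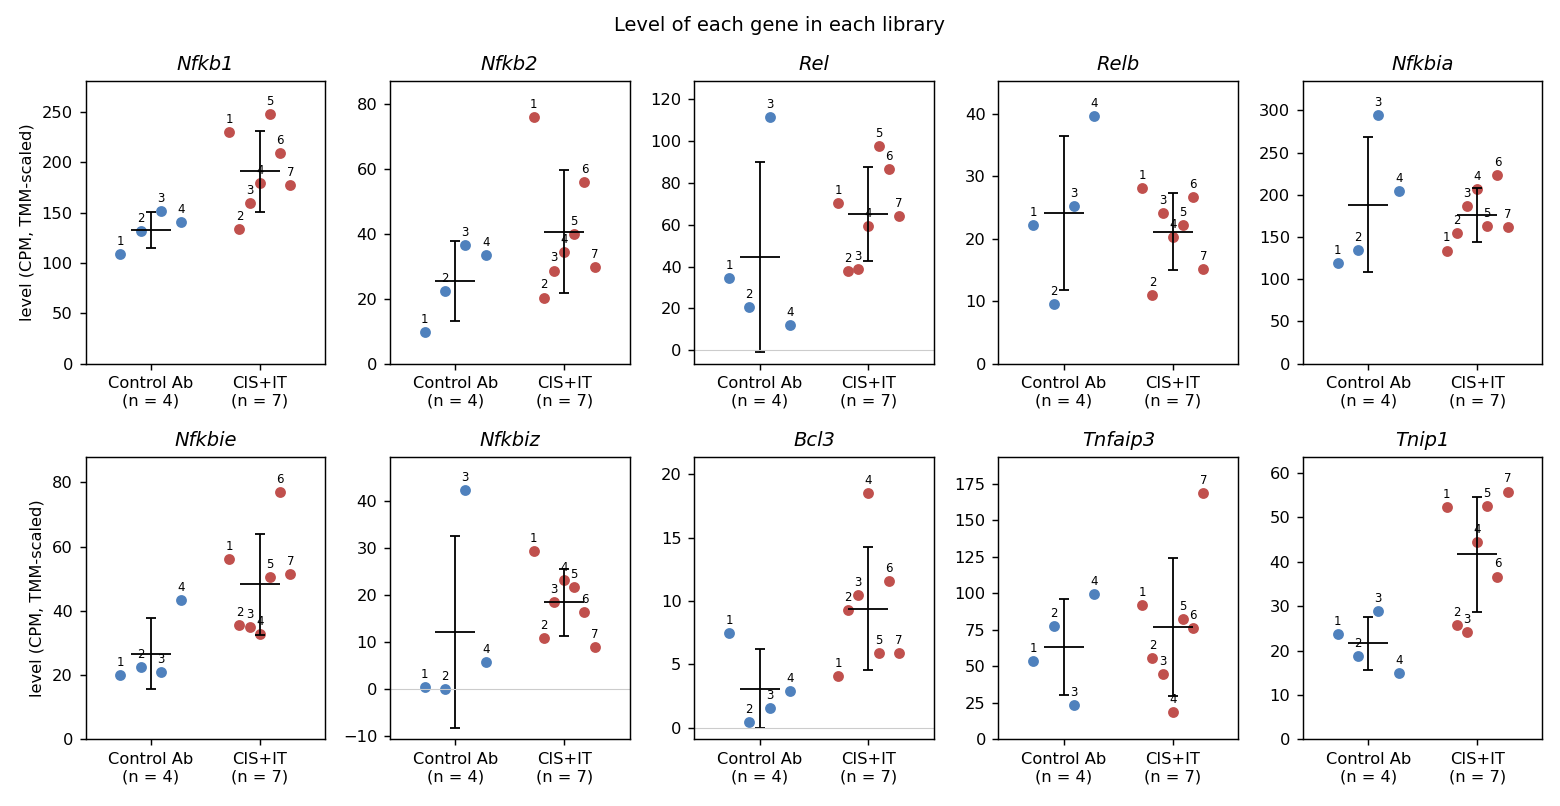
Level of each of the 10 genes in each library (vertical axes, TMM-scaled CPM), with control libraries in blue and treated libraries in red, numbered by replicate; the horizontal line is the mean and the bars are 1 SD. Groups overlap in every panel: for Tnip1, 5 of 7 treated libraries lie above the highest control, while for Nfkbia control 3 is above all treated libraries.

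Among the subunits, Nfkb1 encodes the precursor of the small DNA-binding subunit that most NF-kB dimers contain. The gene (ENSMUSG00000028163) lies at chr3:135584655-135691547. It stood at 109, 132, 151 and 140.3 CPM in controls 1 to 4, and at 133 (treated 2) to 248 (treated 5) in treated libraries, with a median of 179. Only treated 2 was not above the highest control. The means were 191 ± 40.3 CPM (SD, n = 7) and 133 ± 17.8 CPM (SD, n = 4), a log2 fold change of 0.52 ± 0.22 (SE; edgeR unadjusted p = 0.0298, adjusted p = 0.671). The SD of the controls was 13.4% of their mean, the smallest of the 10 genes in that group.

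Nfkb2 encodes the precursor of the other small DNA-binding subunit, and the unprocessed protein holds RelB in the cytoplasm. The gene (ENSMUSG00000025225, chr19:46304320-46312385) overlaps 4833438C02Rik and Psd on the opposite strand, with 944 and 187 counts over all libraries, and without a stated strand setting their reads may not be told apart. Nfkb2 stood at 9.64, 22.4, 36.5 and 33.4 CPM in controls 1 to 4, and at 20.4 (treated 2) to 75.8 (treated 1) in treated libraries, with a median of 34.5. Control 1 was below all others, treated 1 was above all others, and the rest of the groups overlapped. Its log2 fold change was 0.68 ± 0.45 (SE; edgeR adjusted p = 0.835), and it was 0.412 without control 1.

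Rel encodes c-Rel, a subunit with an activation domain that is abundant in blood cells. The gene (ENSMUSG00000020275) lies at chr11:23736847-23770970. It stood at 34.6, 20.7, 111 and 12 CPM in controls 1 to 4, and at 37.8 (treated 2) to 97.7 (treated 5) in treated libraries, with a median of 64.2. All 7 treated libraries were above control 1, control 2 and control 4, and all were below control 3. The log2 fold change was 0.55 ± 0.51 (SE; edgeR adjusted p = 0.916), and it was 1.54 without control 3, 0.315 without control 2 and 0.253 without control 4.

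Relb encodes the partner of the processed Nfkb2 product in the alternative pathway. The gene (ENSMUSG00000002983) lies at chr7:19606217-19629438. It stood at 22.2, 9.48, 25.2 and 39.6 CPM in controls 1 to 4, and at 11.1 (treated 2) to 28.2 (treated 1) in treated libraries, with a median of 22.2. The groups overlapped almost fully, with control 2 lowest and control 4 highest of all 11. Its log2 fold change was -0.19 ± 0.43 (SE; edgeR adjusted p = 0.969), and it turned to 0.165 without control 4. Rela, the subunit of the most common dimer and not one of the 10 genes, had means of 66.0 ± 21.3 CPM (SD, n = 7) when treated and 51.8 ± 5.52 CPM (SD, n = 4) in controls (log2 fold change 0.35, edgeR adjusted p = 0.901).

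Nfkbia encodes IkB-alpha, the inhibitor that is degraded and remade fastest after a signal. The gene (ENSMUSG00000021025) lies at chr12:55489410-55492647, beside the promoter printed above. It stood at 119, 135, 295 and 204 CPM in controls 1 to 4, and at 134 (treated 1) to 224 (treated 6) in treated libraries, with a median of 163. The controls enclosed all 7 treated libraries, with control 1 below and control 3 above them. The means were 176 ± 31.6 CPM (SD, n = 7) and 188 ± 80.2 CPM (SD, n = 4). The log2 fold change was -0.10 ± 0.26 (SE; edgeR adjusted p = 0.971), and it turned to 0.241 without control 3.

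Nfkbie encodes IkB-epsilon, an inhibitor that acts with a delay and binds mainly dimers with RelA or c-Rel. The gene (ENSMUSG00000023947) lies at chr17:45555703-45563169. It stood at 20.2, 22.5, 20.8 and 43.3 CPM in controls 1 to 4, and at 32.8 (treated 4) to 76.9 (treated 6) in treated libraries, with a median of 50.4. All 7 treated libraries were above control 1, control 2 and control 3, and 4 of the 7 were above control 4. The means were 48.3 ± 15.7 CPM (SD, n = 7) and 26.7 ± 11.1 CPM (SD, n = 4), a log2 fold change of 0.86 ± 0.35 (SE; edgeR unadjusted p = 0.0285, adjusted p = 0.671).

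Nfkbiz and Bcl3 encode nuclear members of the IkB family, which bind dimers of the small subunits on DNA and can activate as well as repress. Nfkbiz (ENSMUSG00000035356, chr16:55811375-55838899) stood at 0.381, 0, 42.5 and 5.82 CPM in controls 1 to 4, from 3, 0, 106 and 16 counts. A count of 0 allows up to 3 counts at this depth, for counting error only. In treated libraries it stood at 8.92 (treated 7) to 29.5 (treated 1) CPM, with a median of 18.6. Thus 3 controls were below every treated library and control 3 was above every one. Fitted over all libraries, the log2 fold change was 0.63 ± 1.08 (SE; edgeR adjusted p = 0.952), and it was 3.34 without control 3, 0.219 without control 1 and 0.21 without control 2.

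Bcl3 (ENSMUSG00000053175, chr7:19808462-19822770) was the least abundant of the 10 genes in CPM, with 3 to 157 counts a library. It stood at 7.48, 0.425, 1.603 and 2.91 CPM in controls 1 to 4, and at 4.08 (treated 1) to 18.5 (treated 4) in treated libraries, with a median of 9.32. All treated libraries were above 3 of the controls, and 4 of the 7 were above control 1. Bcl3 had the largest log2 fold change of the 10 genes and one of the widest errors, at 1.58 ± 0.88 (SE; edgeR unadjusted p = 0.0946, adjusted p = 0.792). Without control 1 it was 2.54. Over the 11 libraries its log2 CPM correlated with the summed level of 7 dendritic cell markers at r = 0.68, of 10 B cell markers at 0.64 and of 10 neutrophil markers at -0.58. The neutrophil sum was mostly Retnlg. Treated 4, the highest library for Bcl3, also had the highest sums of B cell (2508 CPM) and T cell markers (69.6 CPM). The same held for dendritic cell (79.4 CPM) and basophil and mast cell markers (382 CPM). The B cell sum was spread over several markers, among them Cd79b at 688 and Ms4a1 at 643 CPM. Cpa3 made up nearly all of the basophil and mast cell sum, at 377 CPM, with Mcpt8, Fcer1a and Cd200r3 at 0. Lck led the T cell sum at 29.1 CPM and Ccr7 the dendritic cell sum at 43.4 CPM. The part of such cells in the Bcl3 values was not tested.

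Tnfaip3 encodes an enzyme that edits ubiquitin chains on signalling adaptors and so ends the signal, and Tnip1 encodes an adaptor that binds both ubiquitin and that enzyme. Tnfaip3 (ENSMUSG00000019850, chr10:19000910-19015657) stood at 53.4, 77.5, 23.2 and 99.2 CPM in controls 1 to 4, and at 18.8 (treated 4) to 168 (treated 7) in treated libraries, with a median of 76.6. The treated libraries enclosed all 4 controls, and the highest was 8.98 times the lowest, the widest ratio among the 10 genes in that group. Its log2 fold change was 0.28 ± 0.49 (SE; edgeR adjusted p = 0.954), and it turned to -0.04 without treated 7.

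Tnip1 (ENSMUSG00000020400, chr11:54910785-54962917) stood at 23.8, 18.8, 28.9 and 14.9 CPM in controls 1 to 4, and at 24.3 (treated 3) to 55.8 (treated 7) in treated libraries, with a median of 44.5. All 7 treated libraries were above control 1, control 2 and control 4, and 5 of the 7 were above control 3. The means were 41.7 ± 13.0 CPM (SD, n = 7) and 21.6 ± 6.06 CPM (SD, n = 4). The fitted log2 fold change was 0.95 ± 0.36 (SE; edgeR unadjusted p = 0.0187, adjusted p = 0.626). No other of the 10 genes had a smaller p.

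**Figure D2:**
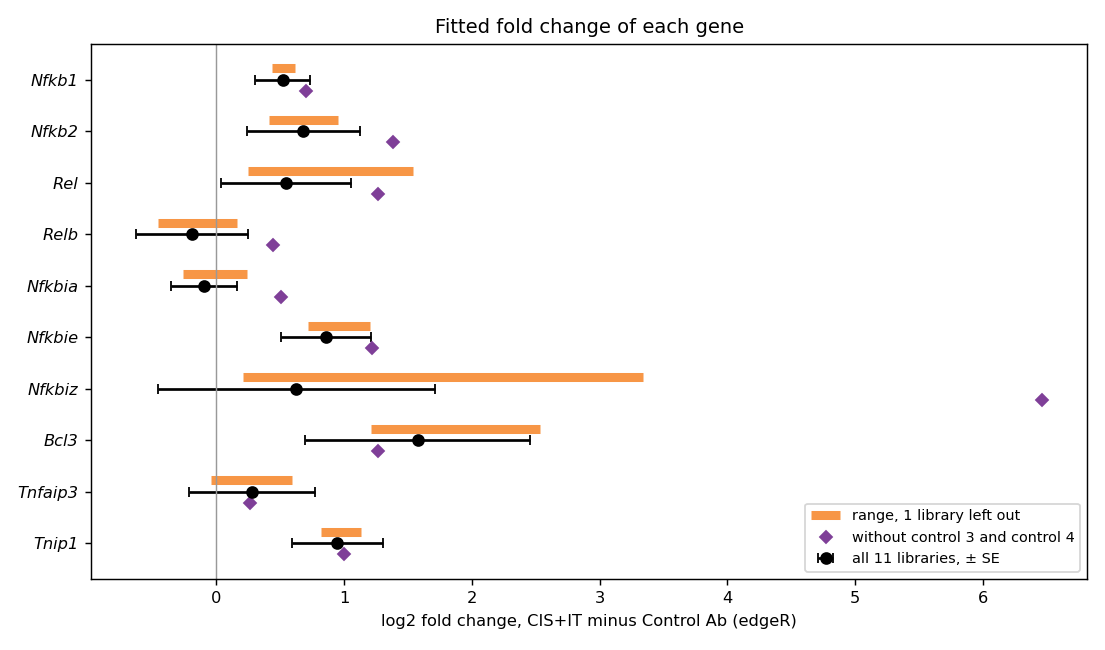
Fitted log2 fold change (treated minus control, edgeR) of each of the 10 genes: the black point and bar give the value and 1 SE over all 11 libraries, the orange band the range when 1 library is left out, and the purple diamond the value without control 3 and control 4. The bands of Relb, Nfkbia and Tnfaip3 cross 0, and the diamond of Nfkbiz at 6.46 rests on controls with 3 and 0 counts.

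Control 3 and control 4, the libraries with much haemoglobin RNA, carried the highest levels of several genes. Control 3 was the highest of all 11 libraries for Rel, Nfkbia and Nfkbiz, and control 4 for Relb. Control 4 was also the lowest for Rel and Tnip1. These 2 libraries were among the 3 lowest for 3 (control 3) and 4 (control 4) of the 10 genes. Control 1 and control 2 were among the 3 lowest libraries for 7 and 9 of the 10 genes. Without control 3 and control 4, all 10 fitted fold changes were above 0, beside 55.1% of all tested genes, and the median was 1.11, beside 0.102. In that comparison 6 of the 10 had an unadjusted p under 0.05 (edgeR), beside 6.41% of all tested genes that were higher at that level. They were Nfkb1 at 0.70, Nfkb2 at 1.39, Rel at 1.27, Nfkbie at 1.22, Nfkbiz at 6.46 and Tnip1 at 1.00 on the log2 scale, all higher in treated libraries. None passed the adjusted threshold there, the smallest adjusted p being 0.0644 for Nfkbiz, whose fitted value depends on the prior count because these controls held 3 and 0 counts. With 2 controls left, that result rests on control 1 and control 2, which had the lowest levels for most of these genes.

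Those same controls had the lowest summed level of monocyte and macrophage markers, though not of each marker. The summed level of 10 such markers, all with counts, was 1630, 819, 17000 and 3419 CPM in controls 1 to 4 and 1793 to 13120 CPM in treated libraries. Of these, Lyz2 (lysozyme) made up much of the sum, at 319 to 14700 CPM, and Csf1r, the receptor of the macrophage growth factor, stood at 364 (treated 3) to 1105 CPM (treated 1), with control 1 and control 2 at 561 and 440.3 CPM. Ccr2, a chemokine receptor of monocytes, was lowest in control 4 at 6.91 CPM and stood at 103 CPM in control 1. Over the 11 libraries the log2 level of this sum correlated with that of Nfkbiz at r = 0.85, Nfkbia at 0.78, Rel at 0.65, Nfkb2 at 0.56, Relb at 0.52 and Nfkb1 at 0.50. It correlated with Bcl3 at 0.38, Nfkbie at 0.31, Tnip1 at 0.30 and Tnfaip3 at -0.47. Platelet markers summed to 11800 and 9786 CPM in control 3 and control 4 and to 3315 CPM or less elsewhere. Nfkbia followed the platelet and erythroid sums at 0.76 and 0.72, Nfkbiz followed them at 0.67 and 0.63, and Relb followed them at 0.55 and 0.65. The dendritic cell sum, at 79.4 CPM or less in all libraries, was followed by Nfkbiz at 0.83, Relb at 0.64 and Nfkbia at 0.62. Nfkbia correlated with the T cell sum at 0.70, Nfkbiz at 0.59, Nfkb2 at 0.54 and Tnfaip3 at -0.39. Relb followed the NK cell sum at 0.57. Tnfaip3 correlated with the neutrophil sum at 0.52 and with the basophil and mast cell sum at -0.79. These are descriptions over libraries that also differ in depth and haemoglobin RNA, and the part of such cells in the fold changes was not tested. Neutrophil markers summed to 4802 to 14290 CPM in treated and 5588 to 16200 CPM in control libraries. Retnlg made up most of these sums, at 4201 CPM (control 1) to 15650 CPM (control 4). S100a8 stood at 4.36 CPM in control 4 and at 1475 CPM in control 3. T cell markers summed to 20.8 to 69.6 CPM in treated and 15.0 to 51.6 CPM in control libraries. Cd3e and Cd8a were at 0 in all controls and in some treated libraries. Cd3d was highest in control 3 at 35.7 CPM and Cd3g in control 4 at 14.9 CPM.

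Levels can be set against each other between genes only per length. Per kilobase of merged exons, Nfkbia stood at 109 ± 19.6 CPM (SD, n = 7) in treated libraries and 117 ± 49.8 CPM (SD, n = 4) in controls, and was above the next gene in 7 of 7 and 4 of 4 libraries. In treated libraries it was followed by Nfkbie at 15.9 CPM per kilobase, Nfkb1 at 15.8, Tnip1 at 11.8, Tnfaip3 at 10.7, Nfkb2 at 8.88, Rel at 8.71, Relb at 5.43, Bcl3 at 3.80 and Nfkbiz at 3.68. Neighbours in this order below Nfkbia overlapped, though Nfkb1 was above Tnip1 and Rel above Relb in 6 of 7 libraries each. In control libraries Nfkb1 was second at 11.03 CPM per kilobase, and Bcl3 was last at 1.25. The places of Nfkb1 and of several other genes depend on the length used. The merged exons of Nfkb1 span 12061 bases. With the 4117 bases of its principal transcript it stood at 46.3 and 32.3 CPM per kilobase in treated and control libraries. By principal transcripts Relb stood above Rel, at means of 9.55 and 8.71 in treated and 10.9 and 5.98 in control libraries. Tnfaip3 then stood above Tnip1 in treated libraries, at 17.4 and 14.0.

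**Figure D3:**
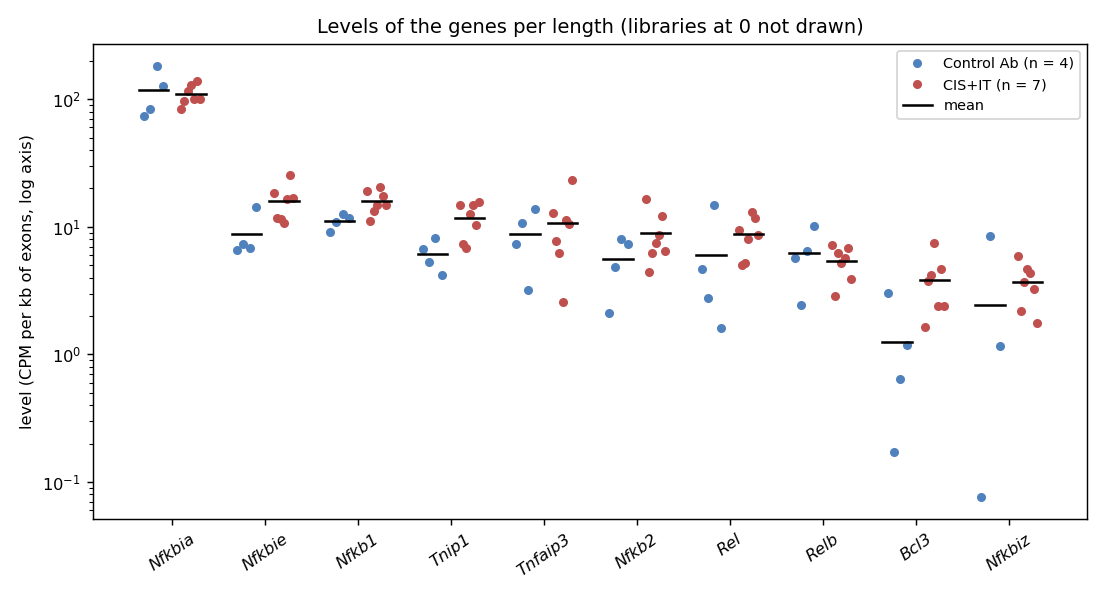
Level of each gene per kilobase of merged exons (vertical log axis, CPM per kilobase) in each control (blue) and treated (red) library, with group means as black lines; libraries at 0 are not drawn. Nfkbia lies far above the other 9 genes in both groups, at means of 109 and 117, and Bcl3 and Nfkbiz lie lowest.

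On the same scale, Nfkbia made up 70.4% ± 6.96 (SD, n = 7) of the summed level of the 6 inhibitors in treated libraries and 79.8% ± 4.98 (SD, n = 4) in controls. The share of Nfkbie was 10.2% ± 2.63 and 6.43% ± 2.31, and that of Tnip1 was 7.66% ± 2.51 and 4.58% ± 1.82. The ratio of Nfkbia to Nfkb1 was 7.19 ± 1.87 (SD, n = 7) in treated libraries and 10.3 ± 3.19 (SD, n = 4) in controls, with ranges of 4.38 to 8.80 and 7.68 to 14.6 that overlap. With the lengths of the principal transcripts this ratio was 2.50 ± 0.65 and 3.60 ± 1.11. These shares and ratios were not tested.

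The genes moved together across libraries only in part. Of the 45 pairs, 39 had a Pearson r above 0 over the 11 libraries (log2 CPM), with a median of 0.409, beside a median of 0.001 over all pairs of genes with a mean of at least 10 CPM. Within the 7 treated libraries 30 pairs were above 0, with a median of 0.306. The pair most alike was Nfkb1 and Nfkb2, at 0.851 over 11 and 0.827 over the 7 treated libraries. Rel followed Nfkb1 at 0.650 over all and 0.918 over treated libraries, and Tnip1 followed Rel at 0.808 and Nfkb1 at 0.785. Nfkbie followed Nfkb1 at 0.767. Nfkbia correlated with Nfkbiz at 0.617, Nfkb2 at 0.409, Rel at 0.326, Nfkb1 at 0.177 and Nfkbie at 0.077, and with Tnfaip3 at -0.473. Bcl3 followed Nfkbia at 0.845 and ran against Tnfaip3 at -0.814 in treated libraries, while over all 11 these values were 0.069 and -0.210. The points share library, depth and cell makeup.

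**Figure D4:**
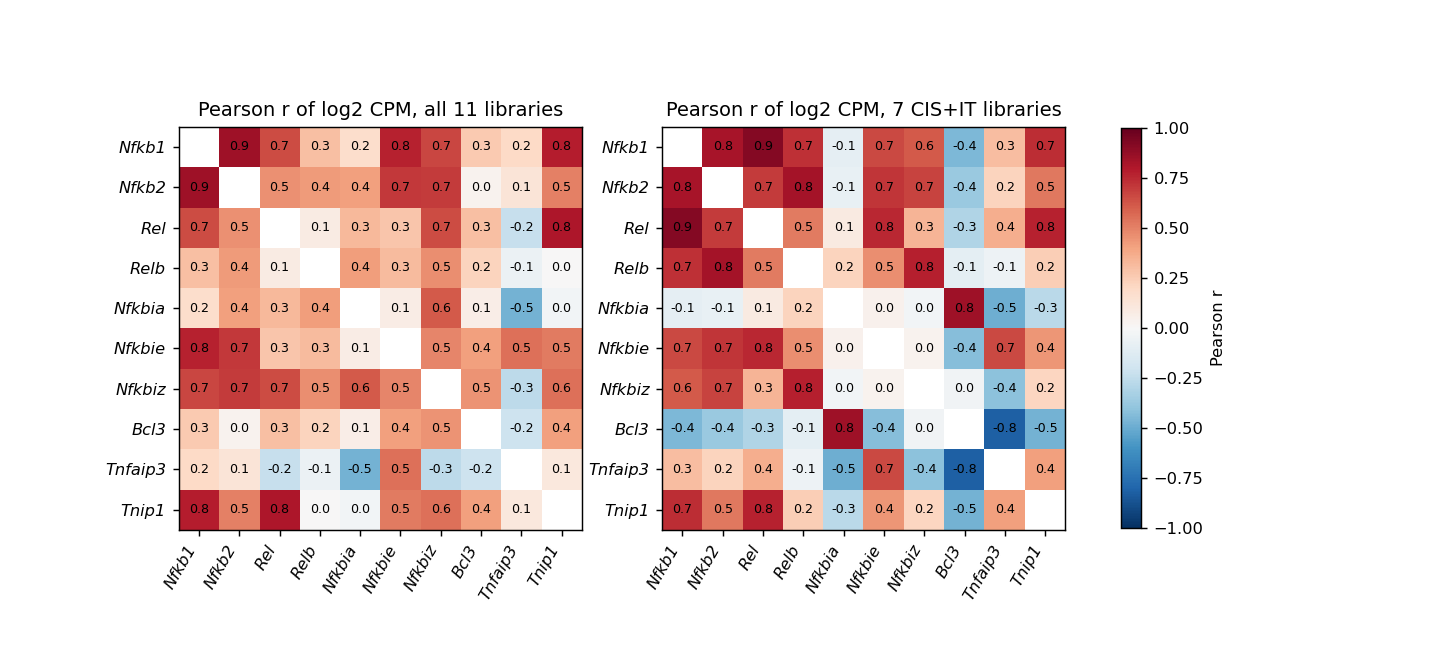
Pearson r of log2 CPM between each pair of the 10 genes, over all 11 libraries (left) and over the 7 treated libraries (right), with red for values above 0 and blue for values below 0. Nfkb1, Nfkb2, Rel, Nfkbie and Tnip1 are red with each other in both panels, while Bcl3 turns from mostly red to mostly blue in treated libraries.

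By the same measure, the genes most like Nfkb1 among 7744 with a mean of at least 10 CPM were Sec24c, a coat protein of vesicles leaving the endoplasmic reticulum (r = 0.881), Nfkb2 (0.851), Nfam1, an activating receptor of immune cells (0.828), Ifnar2, a chain of the type I interferon receptor (0.821), and Grk3, a kinase of G-protein-coupled receptors (0.820). Those most like Nfkbia were Rap1a, a small GTPase (0.897), Limd1 (0.875), Ctsf, a lysosomal protease (0.869), Ttll1 (0.865) and Paqr9 (0.860). No gene named here as alike was called between groups (edgeR adjusted p from 0.662 for Paqr9 to 0.969 for Limd1).

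The rest of the pathway was described with lists of related genes, none of which held a gene past the adjusted threshold. Among all 11389 tested genes, 51.8% were above 0, with a median of 0.028. At an unadjusted p under 0.05 (edgeR), 421 of them were higher (3.7%) and 356 were lower. Of 15 other subunits and inhibitors, 11 were above 0 (median log2 fold change 0.251). The most abundant of these were Tax1bp1, an adaptor of Tnfaip3, at 425 ± 157 CPM (SD, n = 7) in treated libraries and 391 ± 116 CPM (SD, n = 4) in controls, Cyld, an enzyme that removes ubiquitin chains, at 173 ± 95.04 and 145 ± 85.1 CPM, and Itch, a ubiquitin ligase, at 98.8 ± 21.1 and 50.7 ± 35.8 CPM. Itch was higher at 0.96 ± 0.41 (log2, SE; edgeR unadjusted p = 0.0339, adjusted p = 0.682). Without control 3 and control 4 Itch was at 0.616 (edgeR unadjusted p = 0.133). Rnf11, a further partner of Tnfaip3 named after its values were seen, was lower at -1.79 (unadjusted p = 0.00921), and without control 3 and control 4 it was at 0.585.

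Of 29 kinases and adaptors, all tested, 21 were above 0 (median 0.169). Ikbkb, the main kinase of IkB, stood at 308 ± 61.1 CPM (SD, n = 7) in treated libraries and 234 ± 24.8 CPM (SD, n = 4) in controls, with 6 of 7 treated libraries above the highest control (log2 fold change 0.40 ± 0.20 SE, edgeR adjusted p = 0.749). Myd88, the adaptor of Toll-like and IL-1 receptors, stood at 239 ± 105 and 237 ± 61.0 CPM, and the kinase Irak4 at 159 ± 28.2 and 144 ± 44.3 CPM. Irak3, an inhibitory member of that kinase family, and Rnf31, part of the complex that builds linear ubiquitin chains, were named after their values were seen. These 2 of the 29 genes had unadjusted p-values under 0.05 (edgeR), at log2 fold changes of 0.95 and 1.08. Of all tested genes, 3.7% were higher at that level. Without control 3 and control 4 the values were 1.28 and 2.185.

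Of 11 ligands, 5 were tested and 3 of these were above 0 (median 0.430). The median turned to -0.179 without treated 6 and was 0.824 without control 3. Ltb, which encodes lymphotoxin beta, stood at 442 ± 148 CPM (SD, n = 7) in treated libraries and 328 ± 48.8 CPM (SD, n = 4) in controls, and Tnfsf14 at 218 ± 80.8 and 292 ± 85.7 CPM. Il1b stood at 38.5 ± 35.8 and 75.8 ± 112 CPM, and its log2 fold change went from -0.97 to 1.43 without control 3 and control 4. Of 17 receptors, 15 were tested and 10 of these were above 0 (median 0.519). Tnfrsf1b, a TNF receptor, stood at 144 ± 77.5 and 101 ± 50.8 CPM, Tlr13, a sensor of bacterial RNA, at 131 ± 60.6 and 97.6 ± 78.9 CPM, and Il1rl1, the IL-33 receptor, at 127 ± 78.6 and 141 ± 122 CPM. The log2 fold change of Tlr13 without control 3 and control 4 went from 0.43 to 2.14. Tnfrsf11a, which encodes the receptor RANK and was named after its values were seen, had counts in 6 of 7 treated and in 0 of 4 control libraries. Its mean was 6.40 CPM in treated libraries and 0 CPM in controls, and it is among the 10 receptors above 0. It passed the filter on low counts through the treated libraries alone and was not called (edgeR adjusted p = 0.626).

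Of 30 target genes of NF-kB, 21 were tested, 11 above 0 and 10 below (median 0.244). This median ranged from 0.023 without control 1 to 0.279 without treated 4, was 0.035 without treated 1 and 0.044 without control 2, and went to 0.875 without control 3 and control 4. Plaur, the urokinase receptor, stood at 651 ± 163 CPM (SD, n = 7) in treated libraries and 538 ± 71.8 CPM (SD, n = 4) in controls, and Birc3, an inhibitor of cell death, at 187 ± 47.9 and 152 ± 55.9 CPM. The survival gene Bcl2l1 stood at 118 ± 51.7 and 583 ± 634 CPM, and its log2 fold change of -2.31 (edgeR unadjusted p = 0.0167, adjusted p = 0.626) went to 1.49 without control 3 and control 4. Bcl2a1a and Bcl2a1b, named after their values were seen, were lower at -1.29 and -1.38 (edgeR unadjusted p = 0.0476 and 0.0311). Without control 3 and control 4 both were at -2.07. They have near-identical copies whose reads the counting may have split, so their values are uncertain. The histone demethylase gene Kdm6b, named likewise, was the only target higher at an unadjusted p under 0.05, at 0.67 on the log2 scale (edgeR adjusted p = 0.628). Without control 3 and control 4 it was at 0.56 (edgeR unadjusted p = 0.0841). Of the 21 tested targets, 1 was thus higher and 3 were lower at that level, beside 3.7% of all tested genes that were higher.

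**Figure D5:**
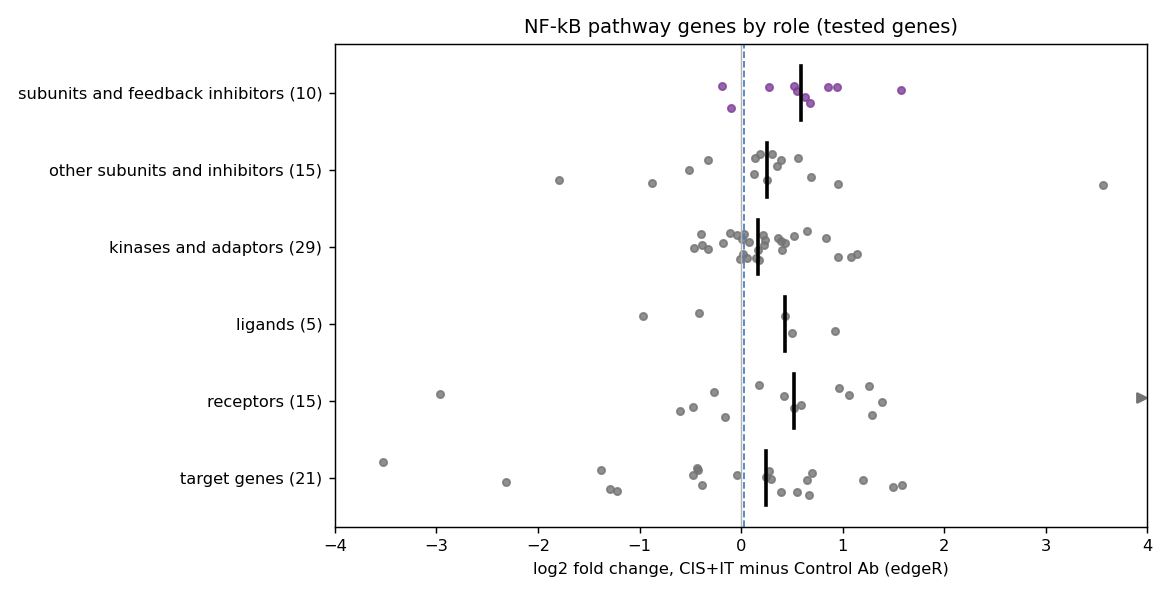
Log2 fold change (treated minus control, edgeR) of the tested genes of each list, with the number tested in parentheses; each point is a gene, black bars are list medians, the dashed line is the median of all tested genes (0.028) and the arrowhead marks Tnfrsf11a beyond the axis. The 10 subunits and feedback inhibitors have a median of 0.587 and the other lists medians of 0.169 to 0.519.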

How the data were processed

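RNA of sorted blood eosinophils was sequenced in 11 libraries (Smart-seq2), 7 treated and 4 control, each from its own mouse. The authors deposited a single table of raw counts per gene. The submitters' processing notes name the build GRCm38 and the tools SAMtools 1.15.1, HISAT2 2.10 and bcl2fastq 2.20.0.422. How reads were counted, with which annotation and strand setting, is not given in the sources used here. Reads of overlapping genes or gene copies may thus be shared. A row that names no gene held 0 counts and was left out. Gene positions in the table equal those of GENCODE M21, which gave exon lengths.

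The test was that of edgeR 4.0.16 under R 4.3.3 (quasi-likelihood with robust dispersions, TMM scaling, filterByExpr, Benjamini-Hochberg adjustment over 11389 genes, threshold 0.05). Fold changes are log2 values, treated minus control. Correlations used log2 CPM with a prior count of 2. Alternatives used DESeq2 1.42.0, limma 3.58.1 (voom with quality weights), other scalings, filters and covariates, a replicate block, and fewer libraries. The test was checked on simulated counts. Libraries were checked for duplicates, and every pair differed (chi-square per gene of 59.2 or more). Reads carry no molecular identifiers. Promoter stretches come from RefSeq (GRCm38.p6).

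The 10 genes and the pathway and marker lists were chosen with earlier results of these data known. The text names the 10 genes, from each pathway list the 3 with the highest mean CPM and any past the threshold, the 5 genes most like Nfkb1 and Nfkbia, and the sort markers; other genes are said to be named after their values were seen.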

Additional observations from a re-analysis of the deposited data

Results flagged for a closer look

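In 20 groups of values (10 genes in each of 2 groups), 2 held a library far from the others, and chance flags about 1 in 20 groups. Nfkbie stood at 43.3 CPM in control 4, where the nearest control stood at 22.5 CPM. Nfkbiz stood at 42.5 CPM in control 3, where the nearest control stood at 5.82 CPM. Both libraries are those with much haemoglobin RNA, and its part in these values was not tested.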

How the results depend on the processing

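DESeq2 called 79 of all genes (57 higher and 22 lower) where edgeR called 0, and none of the 10 genes was called under any alternative run. The genes Nfkb1, Nfkb2, Rel, Nfkbie, Nfkbiz, Bcl3 and Tnip1 stayed above 0 in every alternative. Relb turned to 0.166 with limma-voom, 0.443 without control 3 and control 4 and 0.227 with the identifier letters as covariate (chosen after seeing the data), and ranged from -0.453 to 0.165 with 1 library left out. Nfkbia turned to 0.131 with limma-voom, 0.511 without control 3 and control 4 and 0.257 with the number of detected genes as covariate, and ranged from -0.259 to 0.241 with 1 library left out. Tnfaip3 ranged from -0.04 to 0.595 with 1 library left out. The causes were not tested. The number of the 10 genes with an unadjusted p under 0.05 was 3 in the edgeR test, beside 6.82% of all tested genes in either direction. It was 6 with limma-voom (6.91%), 6 without control 3 and control 4 (8.57%) and 4 with DESeq2 (6.76% of genes with a count). Without control 3 it was 4 (7.33%), and without control 2 it was 1 (7.15%). It was 2 without control 1 (11.33%), control 4 (6.91%), treated 5 (6.28%) or treated 6 (5.79%). With the letters as covariate the contrast comes from treated 1 and the controls alone. Replicate numbers 1 to 4 occur in both groups. The deviations of same-numbered libraries correlated at -0.03, 0.02, -0.12 and -0.04, which shows no sign of pairing but cannot exclude it. With the replicate block, 0 genes were called, and Tnfaip3 turned to -0.233. There 0 of the 10 had an unadjusted p under 0.05, beside 2.89% of all tested genes. With 1 library left out, the median log2 fold change of the 10 genes ranged from 0.426 (without control 1) to 0.877 (without control 3). It moved from 0.587 to 1.02 with the number of detected genes as covariate, beside 0.057 for all tested genes. With 1 library left out, the median log2 fold change ranged from 0.15 to 0.368 for other subunits and inhibitors, 0.092 to 0.261 for kinases and adaptors, -0.179 to 0.824 for ligands, 0.313 to 0.851 for receptors and 0.023 to 0.279 for target genes, and with the letters as covariate that of target genes turned to -0.38. Nfkbiz was at 4.35 with limma-voom. Testing all genes with a count moved the median of all genes from 0.028 to 0.205, and the replicate block moved it to 0.134. Low counts limit Bcl3 and Nfkbiz most, which had 8 or fewer counts in 3 and 2 controls. For Nfkbiz these were control 1 and control 2, the controls with the largest totals (6721060 and 6471344 counts).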
